A study of Mus musculus with 12 samples.

Results

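The loss of the glucose transporter GLUT3 was compared between T helper 17 (Th17) and T helper 1 (Th1) cells, as the genotype effect in Th17 cells minus the genotype effect in Th1 cells. All 12 of the 12 libraries of the series entered this contrast, and 14579 of the 45703 listed genes, those at 1 TPM or more in at least 3 libraries, were tested. TPM is a transcript abundance: reads are corrected for the length of the exons and then for the depth of the library. There were 3 libraries in each of 4 groups. Wild-type Th17 and wild-type Th1 cells carried no allele that the labels name, and the GLUT3-deficient cells of either lineage were Slc2a3-fl/fl Cd4-cre, a floxed Slc2a3 gene cut out by Cre recombinase. All were CD4+ T cells of the C57BL/6 background. The cells were naive at the start, and were held for 3 days in culture with antibodies against CD3 and CD28 and with cytokines, unnamed in the labels, that polarize to Th1 or Th17. Age and sex of the mice are not given. Cd4-cre is active from the thymus on and also in cells that become CD8 T cells, so the deletion preceded the culture, and the labels do not say whether the wild-type mice carried Cre. The labels do not say that replicates were separate mice or cultures. In the main fit every p-value rests on the spread within groups of 3 libraries, pooled over the 4 groups, and that spread may be technical.

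GLUT3 is a high-affinity facilitative transporter that carries glucose down its gradient into cells, and activated T cells use it beside GLUT1. Th1 cells are driven by the transcription factor T-bet and make interferon gamma, a cytokine that induces guanylate-binding proteins, immunity-related GTPases and antigen presentation genes. Th17 cells make interleukins 17A and 17F. A gene whose response to the loss of GLUT3 depends on the lineage has a non-zero interaction, here the difference of both genotype effects on the log2(TPM + 1) scale. A positive interaction means that the knockout raised the gene more, or lowered it less, in Th17 than in Th1 cells.

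The libraries held 16596283 to 28496606 reads. At that depth 3 reads in 1 kb of exon stand for 0.19 to 0.437 TPM, which covers counting error only. GLUT3-deficient Th17 replicate 2 stood apart, with a median absolute log2 difference of 0.626 from the other libraries of its group against 0.168 to 0.433 for the other libraries, and with 0.04% mitochondrial reads against 0.19 to 1.02%. The median SD of a gene over replicates was 0.39 in GLUT3-deficient Th17, 0.25 in wild-type Th17, 0.25 in wild-type Th1 and 0.15 in GLUT3-deficient Th1. Il17f, a signature cytokine gene of Th17 cells, stood at 568 to 1076 TPM in wild-type Th17 and at 0.307 to 0.886 TPM in wild-type Th1 cells, and Tbx21, which encodes T-bet, at 2.38 to 4.66 and at 95.19 to 130.76 TPM. The lineage labels therefore held for both markers. Slc2a3, the targeted gene, had 379, 109 and 44.6 TPM in the wild-type Th17 libraries and 5.14, 18.7 and 3.3 TPM in the GLUT3-deficient ones. In Th1 the wild type had 398, 95.6 and 64.7 TPM and the GLUT3-deficient libraries 6.79, 4.49 and 7.97 TPM. The genotypes did not overlap, although wild type varied widely, and Slc2a3 fell in both lineages, by 3.95 in Th17 and by 4.23 in Th1 on the log2 scale. Its interaction was 0.28 ± 1.15 (SE), so the extent of its loss was not shown to differ between lineages.

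Several of the genes named here are known to be induced by interferon, and 5 promoters are shown as examples. They come from RefSeq on GRCm38.p6, cover the 250 bases before a listed start and run from 5′ to 3′ on the strand of the gene. Capitals mark matches on either strand to GAAANNGAA, a core of the element bound by interferon regulatory factors, or to TTCNNNGAA, the gamma-activated site of interferon-inducible genes. Tgtp2 (an interferon-inducible GTPase, chr11:49064213-49064462, minus strand) holds a match of each kind close to each other. Gm12250 (an immunity-related GTPase locus, chr11:58183593-58183842, plus strand) holds 3 matches. Ifi211 (interferon-inducible p200 family, chr1:173913047-173913296, minus strand) holds 1. The stretch of Ifi211 overlaps the gene span given for it below, and its match lies within that span. Tnfsf8 (the CD30 ligand, chr4:63861285-63861534, minus strand) and Nkg7 (a cytotoxic granule protein, chr7:43436888-43437137, plus strand) hold 1 each. All 5 promoters shown hold a match, so they do not represent the genes named here. Neither motif was found for Ubd, Ms4a4b, Plac8, Fhl2, Tubb3 or Cyp11a1, whose promoters are not shown.
Tgtp2: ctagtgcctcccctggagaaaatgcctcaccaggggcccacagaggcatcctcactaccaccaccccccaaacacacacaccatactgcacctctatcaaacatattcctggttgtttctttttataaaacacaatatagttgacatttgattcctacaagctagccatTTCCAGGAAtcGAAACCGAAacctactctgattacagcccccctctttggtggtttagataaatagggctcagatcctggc
Gm12250: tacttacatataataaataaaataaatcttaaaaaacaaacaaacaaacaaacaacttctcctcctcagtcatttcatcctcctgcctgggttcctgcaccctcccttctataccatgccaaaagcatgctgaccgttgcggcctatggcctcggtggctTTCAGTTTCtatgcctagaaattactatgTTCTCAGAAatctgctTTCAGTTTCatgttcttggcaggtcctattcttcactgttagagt
Ifi211: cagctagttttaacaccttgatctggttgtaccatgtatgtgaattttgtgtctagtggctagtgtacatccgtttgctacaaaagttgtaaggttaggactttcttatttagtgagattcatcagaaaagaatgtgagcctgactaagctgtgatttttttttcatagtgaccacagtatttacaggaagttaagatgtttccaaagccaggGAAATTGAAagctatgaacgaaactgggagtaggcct
Tnfsf8: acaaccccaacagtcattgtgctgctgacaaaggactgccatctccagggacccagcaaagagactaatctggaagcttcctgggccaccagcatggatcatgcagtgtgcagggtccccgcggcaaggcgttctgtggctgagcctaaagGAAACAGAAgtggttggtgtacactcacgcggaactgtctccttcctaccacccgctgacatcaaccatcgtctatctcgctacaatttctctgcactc
Nkg7: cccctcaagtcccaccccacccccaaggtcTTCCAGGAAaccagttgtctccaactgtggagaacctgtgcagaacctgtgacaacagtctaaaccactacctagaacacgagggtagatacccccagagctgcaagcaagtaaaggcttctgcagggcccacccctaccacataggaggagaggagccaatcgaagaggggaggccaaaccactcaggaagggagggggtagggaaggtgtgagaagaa

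Loss of GLUT3 acted in much the same direction in both lineages, and a lineage-dependent response was detected for few genes. Of the 14579 genes, 93 (0.638%) had an interaction at a limma adjusted p under 0.05. Of these, 51 (0.35%) had a positive interaction and 42 (0.288%) a negative one, against 930 genes at an unadjusted p under 0.05. In the same fit the genotype effect itself was called for 2933 genes (20.1%) in Th17 and for 2568 genes (17.6%) in Th1. Both effects were called for 1676 genes, with the same sign for 1665 and opposite signs for 11. For 2149 genes exactly 1 of the effects passed the threshold, and only 64 of those also passed for the interaction, so an effect called in a single lineage was mostly not shown to differ from the other. Across genes, which are not independent replicates, the effects correlated at 0.76 (Pearson). The median interaction was 0.005, and the smallest absolute interaction called was 1.15, where the median SE of an interaction was 0.37. These counts rest on the spread of all 4 groups together. With only the 6 libraries of each lineage, 1009 genes were called in Th17 and 4220 in Th1.

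**Figure D1:**
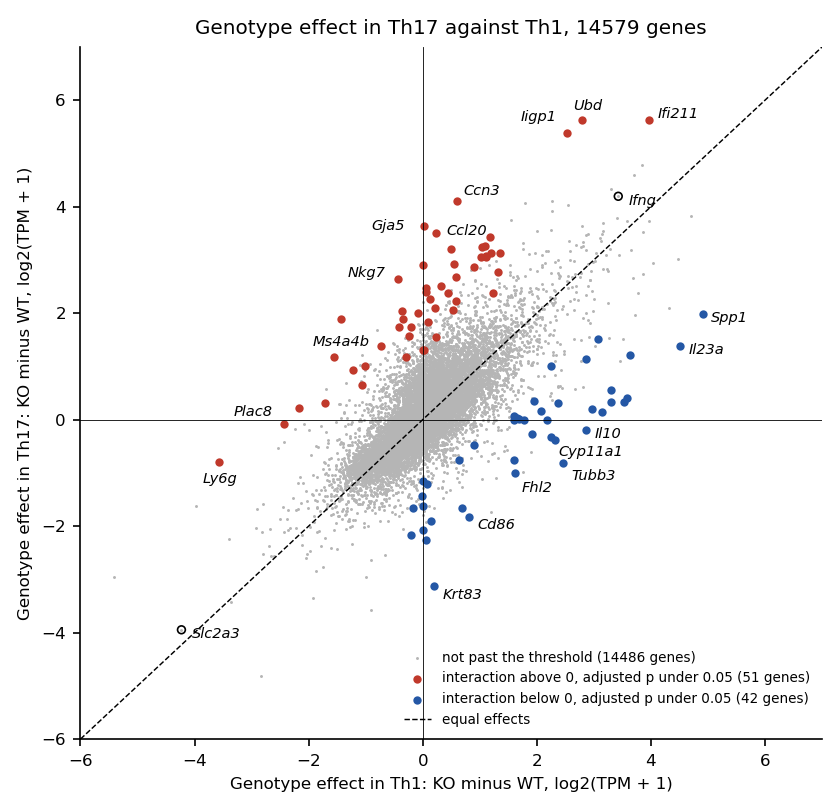
Genotype effect in Th17 (y axis) against Th1 (x axis) for 14579 genes, both as GLUT3-deficient (KO) minus wild type (WT) on the log2(TPM + 1) scale; coloured points are the 93 genes whose interaction had an adjusted p under 0.05, open circles mark Slc2a3 and Ifng, which did not, and the dashed line marks equal effects. Most genes follow the dashed line, Ubd, Iigp1 and Gja5 lie above it, and Il10, Il23a and Krt83 lie below it.

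The cytokine genes that separated the lineages most rose with the loss of GLUT3 in Th1 cells. Of 22 tested effector cytokine genes, 4 had a called negative interaction (Il10, Il23a, Spp1 and Lta) and 1 a positive one (Tnfsf8), with a list median of -0.13 beside 0.0 over all genes. Il10 (chromosome 1, 131019845 to 131024970), which encodes the anti-inflammatory interleukin 10, stood at 56.4, 57.5 and 56.9 TPM in wild-type Th17, at 45.5, 47.5 and 56.5 TPM in GLUT3-deficient Th17, at 60.1, 58.1 and 67.1 TPM in wild-type Th1, and at 567, 462 and 357 TPM in GLUT3-deficient Th1 cells. Only the GLUT3-deficient Th1 libraries stood apart, and the genotypes overlapped in Th17. The genotype effect was 2.86 in Th1 and -0.19 in Th17, and the interaction was -3.05 ± 0.25 (limma adjusted p = 0.000358). It was -3.02 without GLUT3-deficient Th17 replicate 2.

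Other cytokine genes rose in both lineages, and rose more in Th1. Il23a encodes the p19 subunit of interleukin 23, which sustains Th17 cells. Its level was 1.51, 2.63 and 1.45 TPM in wild-type Th17, 8.05, 5.14 and 6.12 TPM in GLUT3-deficient Th17, at 3.29, 0.958 and 1.33 TPM in wild-type Th1, and at 61.2, 77 and 47 TPM in GLUT3-deficient Th1 cells. The genotypes did not overlap in either lineage, and the effects were 1.38 in Th17 and 4.51 in Th1. Spp1, which encodes osteopontin, rose by 1.98 in Th17 (2.76, 9.65 and 8.02 TPM against 22.6, 31.1 and 28.6 TPM) and by 4.91 in Th1 (2.2, 5.81 and 5.55 TPM against 147, 146 and 178 TPM). Lta, which encodes lymphotoxin alpha, a member of the tumour necrosis factor family, was abundant throughout. It rose by 1.02 in Th17, from 450 to 536 TPM in wild type to 845 to 1069 TPM, and by 2.25 in Th1, from 395 to 432 TPM to 1868 to 2063 TPM. The interactions were -3.13 ± 0.45 for Il23a, -2.93 ± 0.54 for Spp1 and -1.24 ± 0.20 for Lta (limma adjusted p = 0.00974, 0.0346 and 0.0176). They were -3.00, -3.02 and -1.26 without GLUT3-deficient Th17 replicate 2. With each library left out in turn, Il23a lost its call only without GLUT3-deficient Th1 replicate 2 (-2.96). Lta lost it in 6 of 12 fits, with any GLUT3-deficient Th1 library, wild-type Th1 replicate 2 or 3 or wild-type Th17 replicate 3 left out (-1.31 to -1.14 over all 12). Spp1 kept it only without wild-type Th17 replicate 1 or GLUT3-deficient Th17 replicate 2 (-3.39 to -2.57).

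Il19, a cytokine gene of the interleukin 10 family that lies 74.4 kb from Il10, and Hbegf, which encodes a growth factor that binds the epidermal growth factor receptor, moved the same way. Hbegf rose from 3.91 to 5.12 TPM to 9.32 to 12.7 TPM in Th17 and from 4.09 to 6.26 TPM to 33 to 50.1 TPM in Th1 cells, an interaction of -1.71 ± 0.32. Il19 stood at 4.18 to 6.57 TPM in GLUT3-deficient Th1 cells and did not exceed 2.5 TPM in the other groups, with an interaction of -2.70 ± 0.52. Both calls were lost in most fits that left out 1 library: Il19 kept its call in 3 of 12 and Hbegf in 2 of 12. With all 12 libraries the signature cytokines of both lineages did not pass the threshold for the interaction. Ifng, which encodes interferon gamma, rose by 4.20 in Th17 (1.99 to 4.64 TPM against 54.7 to 119 TPM) and by 3.43 in Th1 (487 to 1115 TPM against 6739 to 8709 TPM), with an interaction of 0.77 ± 0.49. Il17f missed it narrowly, with an interaction of -2.39 (limma adjusted p = 0.0547) from effects of -1.09 in Th17 and 1.29 in Th1. It was called without wild-type Th17 replicate 1 and without GLUT3-deficient Th1 replicate 3. Its level in Th1 was at most 4.52 TPM, against 309.63 to 1076 TPM in Th17. For Il17a, Il21, Il22 and Csf2 the interactions were -1.24, -1.13, -1.13 and -0.73 and were not called. The size for Il17a depends on the scale. It was -3.14 with a pseudocount of 0.1, ran from -3.72 to -0.02 over the alternatives with all 12 libraries, and was called in none. That of Il21 was called without GLUT3-deficient Th17 replicate 2.

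**Figure D2:**
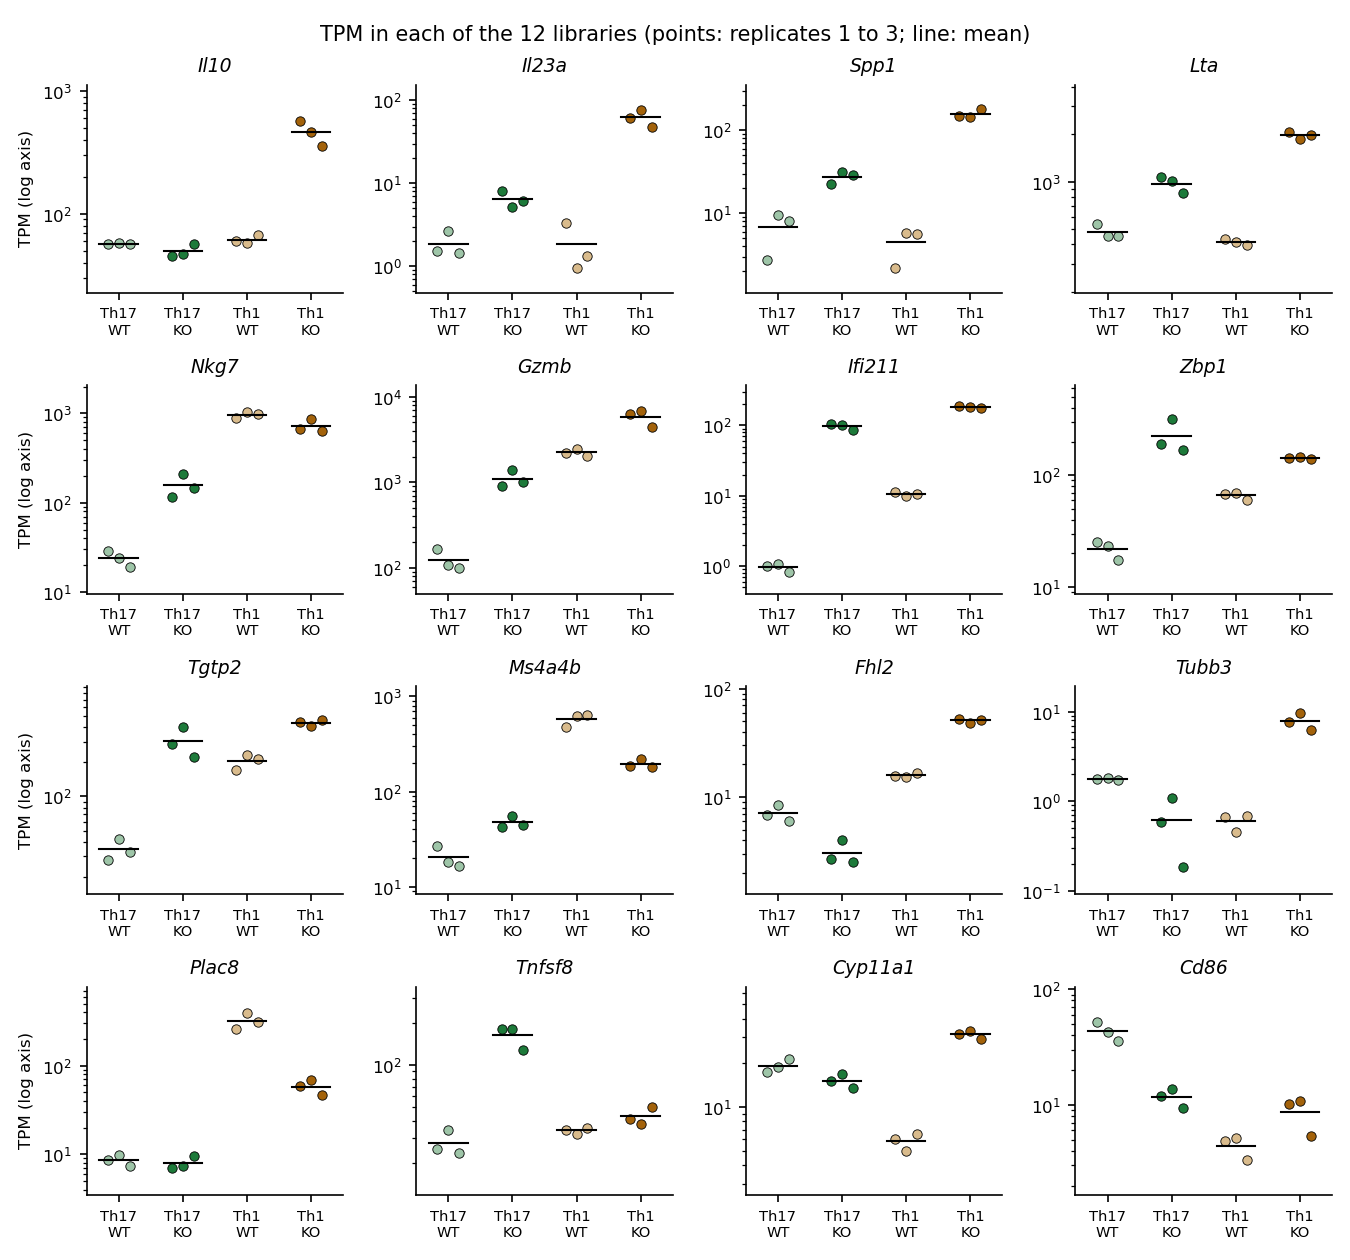
TPM of 16 genes in each of the 12 libraries, on log axes that differ between panels; points are the 3 replicates of a group in order and the line is their mean. Il10 stands apart in GLUT3-deficient (KO) Th1 alone (357 to 567 TPM). Nkg7 and Tnfsf8 rise in Th17. In Th1 neither passed the test, although the genotypes do not overlap, with Nkg7 lower and Tnfsf8 higher in GLUT3-deficient cells. Ms4a4b, Fhl2 and Tubb3 move in opposite directions in the lineages.

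Many interferon-inducible genes rose with the loss of GLUT3 in both lineages, and for a few of them the rise on the log2 scale was shown to be larger in Th17 cells. Among the 27 tested immunity-related GTPases, guanylate-binding proteins and p200 family genes, 25 had a positive interaction and 4 a called one (Ifi211, Iigp1, Tgtp1 and Tgtp2). The list median was 0.99, from a median genotype effect of 2.32 in Th17 and 1.24 in Th1, and 25 members rose in Th17 and 19 in Th1, where 10.7% and 9.2% of all tested genes rose. Among 34 tested antiviral interferon-stimulated genes, all 34 interactions were positive with a median of 0.78, and 2 were called (Phf11b and Zbp1). Over all genes tested 7382 of 14579 interactions were positive. These counts describe the lists, and the genes of a list share their regulators and are not independent. The list medians stayed positive under every setting tried, at 0.61 to 1.39 for the GTPases and p200 genes and 0.57 to 1.02 for the antiviral genes.

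Tgtp1 and Tgtp2 are near-identical neighbouring GTPase genes on chromosome 11, so their single values are uncertain, and the p200 and Phf11 genes also have close copies. Tgtp2 stood at 28, 42.9 and 32.5 TPM in wild-type Th17, at 285, 400 and 222 TPM in GLUT3-deficient Th17, at 170, 231 and 214 TPM in wild-type Th1, and at 446, 414 and 460 TPM in GLUT3-deficient Th1 cells. The genotypes were separate in both lineages, and GLUT3-deficient Th17 overlapped the range of wild-type Th1 cells. The interaction was 1.97 ± 0.32 for Tgtp2 and 1.98 ± 0.33 for Tgtp1 (limma adjusted p = 0.018 and 0.0198). Zbp1, a sensor of Z-form nucleic acids that can trigger cell death, rose from 25.1, 23.3 and 17.5 TPM to 189, 320 and 170 TPM in Th17 and from 68.4, 69.1 and 60.7 TPM to 143, 145 and 140 TPM in Th1 cells. Here GLUT3-deficient Th17 cells ended above GLUT3-deficient Th1 cells in every library. Its interaction of 2.16 ± 0.32 was lost as a call only without GLUT3-deficient Th1 replicate 1 (2.17) or 2 (2.17). Ubd, an interferon-inducible ubiquitin-like protein on chromosome 17, rose to 84.6, 49.1 and 108 TPM in Th17, where wild type was listed at 0, 1.24 and 0.755 TPM, and from 1.44, 2.31 and 1.82 TPM to 23.6, 15.6 and 17.2 TPM in Th1.

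Iigp1, a GTPase that attacks the vacuoles of intracellular parasites, rose from 0.166, 0.506 and 0.557 TPM to 51.6, 100 and 35.7 TPM in Th17 and from 6.85, 12.3 and 18.5 TPM to 68.6, 65.1 and 83.2 TPM in Th1. Ifi211 (chromosome 1, 173896339 to 173913087) rose from 1.02, 1.07 and 0.817 TPM to 105, 101 and 84.9 TPM in Th17, and from 11.5, 9.83 and 10.7 TPM to 186, 181 and 178 TPM in Th1. Unlike Zbp1 and Ubd, Ifi211 remained higher in GLUT3-deficient Th1 than in GLUT3-deficient Th17 cells. The interactions were 2.84 ± 0.49 for Ubd, 2.85 ± 0.53 for Iigp1 and 1.66 ± 0.22 for Ifi211 (limma adjusted p = 0.023, 0.0346 and 0.0064). Because wild-type Th17 levels were near or below 1 TPM, these values depend on the pseudocount: they were 4.03, 4.29 and 2.43 with a pseudocount of 0.1, where Ubd was not called, and 2.08, 1.34 and 0.51 with one of 5, where Iigp1 and Ifi211 were not. Ifi211 was called in every fit that left out 1 library. Ubd was called in 4 of 12 and Iigp1 in 3 of 12, with ranges of 2.51 to 3.15 and 2.45 to 3.19. Tgtp1 and Tgtp2 were called in 5 of 12 each, with ranges of 1.76 to 2.18 and 1.75 to 2.17, and both were lost with any GLUT3-deficient Th1 library left out. Without GLUT3-deficient Th17 replicate 2 all 6 genes were called, at 1.75 for Tgtp2, 1.76 for Tgtp1, 1.88 for Zbp1, 3.15 for Ubd, 2.45 for Iigp1 and 1.63 for Ifi211.

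Other called genes of this kind were Gm12250, with an interaction of 1.94 ± 0.32 from 12.7 to 22.6 TPM in wild-type Th17 to 125 to 204 TPM, and Calhm6, a gene of the calcium homeostasis modulator family, with 2.21 ± 0.35. The neighbouring genes Phf11a and Phf11b rose in Th17 and did not pass the test in Th1, with interactions of 1.93 ± 0.34 and 1.88 ± 0.33. Phf11b stood at 58.6, 42.2 and 29.3 TPM against 191, 182 and 171 TPM in Th17 and at 99.5, 109 and 72.5 TPM against 103, 104 and 115 TPM in Th1 cells. The last pair of groups overlapped. With 1 library left out, Calhm6 kept its call in 6 of 12 fits, Gm12250 in 5, and Phf11a and Phf11b in 3 each. Irf1, a transcription factor of the interferon response, rose in both lineages (effects 2.71 in Th17 and 1.53 in Th1), and its interaction of 1.18 was not called. Usp18, an inhibitor of interferon receptor signalling, had 2.28 (limma adjusted p = 0.0892). In the promoters of the tested genes, from 250 bases before to 50 after the start, GAAANNGAA on either strand was found for 825 of 9494 genes (8.69%), and for 2812 of 32851 promoters of that length in all (8.56%). It was found for 12 of 37 genes with a positive interaction (32.4%) and 4 of 28 with a negative one (14.3%), and for 15 of 18 GTPase and p200 genes (83.3%). TTCNNNGAA was found for 797 of the 9494 genes (8.39%), for 9 of the 37 (24.3%) and for 3 of the 28 (10.7%). Motifs of other factors departed as well. Of the 37, 13.5% held GGTGTGA (T-box half-site) and 8.11% ACGTG (hypoxia response core), against 4.12% and 29.6% of the 9494. Of the 28, 21.4% held TGANTCA (AP-1 site) and 14.3% TGATGNAA (amino acid response element core), against 6.13% and 2.86%. AGGTCA (ROR half-site) stood at 16.2% of the 37 against 14.7%. Such a match is a description of the letters and not a binding site.

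Nkg7 and Gzmb, genes of the cytotoxic granule that were far higher in wild-type Th1 than in wild-type Th17 cells, rose more in Th17 on the log2 scale. In TPM the rise of Gzmb was larger in Th1. Nkg7 (chromosome 7, 43437138 to 43438246), a granule membrane protein of cytotoxic lymphocytes, had 28.5, 24 and 19.3 TPM in wild-type Th17 and 117, 208 and 146 TPM in GLUT3-deficient Th17 cells. In Th1 it was high in either genotype, at 882, 1033 and 991 TPM in wild type and 661, 861 and 641 TPM in GLUT3-deficient cells. The effects were 2.64 in Th17 and -0.44 in Th1, where the test was not passed, and the interaction was 3.08 ± 0.31 (limma adjusted p = 0.00103). It was 2.86 without GLUT3-deficient Th17 replicate 2. Gzmb, which encodes granzyme B, rose in both lineages, from 168, 108 and 101 TPM to 904, 1386 and 1014 TPM in Th17 and from 2210, 2464 and 2044 TPM to 6204, 6781 and 4412 TPM in Th1 cells. Its interaction of 1.78 ± 0.33 (limma adjusted p = 0.0346) was kept in only 2 of 12 fits that left out 1 library, those without wild-type Th17 replicate 1 and without GLUT3-deficient Th17 replicate 2 (1.60 to 2.01). The other 13 tested cytotoxic genes and the other 20 tested genes of the Th1 list had no called interaction. Gzmf came nearest among the former at -1.18 (limma adjusted p = 0.105), a sign that depends on the scale: it was -1.27 and called with a pseudocount of 5, 0.68 with one of 0.1 and 1.35 with voom, and wild-type Th17 was listed at 0 in 2 libraries. Tbx21 rose in Th17 (effect 2.55) with an interaction of 1.53 ± 0.76, and its 3 GLUT3-deficient Th17 libraries spread from 10.3 to 81.24 TPM, the highest being replicate 2.

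For other genes a fall was called in Th1 cells and not in Th17 cells, which also gives a positive interaction. Plac8, a cysteine-rich protein of lymphoid and myeloid cells, fell in Th1 cells from 257, 388 and 308 TPM to 58.2, 68.9 and 46.1 TPM with the loss of GLUT3. In Th17 it was low in both genotypes, at 8.61, 9.71 and 7.28 TPM and at 6.94, 7.43 and 9.65 TPM. The interaction was 2.35 ± 0.30 (limma adjusted p = 0.00557), and 2.39 without GLUT3-deficient Th17 replicate 2. Ly6g, a gene of the Ly6 surface proteins whose product marks neutrophils, fell from 37.2, 66.4 and 32.6 TPM to 3.09, 1.81 and 3.48 TPM in Th1, an effect of -3.57. In Th17 it went from 15.7 to 29.9 TPM to 8.54 to 15.8 TPM, a fall that did not pass the test. Its interaction of 2.78 ± 0.47 was called in 5 of 12 fits that left out 1 library (2.48 to 3.02). Ifngas1, an antisense transcript near Ifng, fell in Th1 from 10.8, 20.5 and 11.3 TPM to 3.27, 2.04 and 1.66 TPM while Ifng rose. Its interaction of 2.38 ± 0.40 was kept as a call in 5 of 12 such fits. Ifngas1 belongs to the genes at 1 TPM or more in Th1 only, so its low level in Th17 left little room for a fall there. The kit does not mark strand, so reads on overlapping genes cannot be assigned to either strand. Among uncalled genes, Cxcr3 and Il23r fell in Th1 (effects -1.45 and -1.88) and did not pass the test in Th17 (0.30 and -0.49). Their interactions of 1.74 and 1.38 had limma adjusted p-values of 0.141 and 0.106. That of Il23r was called with median-of-ratios scaling (limma adjusted p = 0.0463) and in no other alternative.

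A small set of genes changed in opposite directions, with both genotype effects called. Ms4a4b (chromosome 19, 11443558 to 11463549), a membrane protein of T cells related to CD20, rose in Th17 from 26.9, 18.4 and 16.7 TPM to 42.6, 55.5 and 44.8 TPM and fell in Th1 from 472, 628 and 643 TPM to 186, 220 and 181 TPM. The neighbouring gene Ms4a4c rose from 0.884, 0.812 and 0.515 TPM to 2.48, 2.86 and 2.15 TPM and fell from 22.4, 27.6 and 30.4 TPM to 12.2, 16.8 and 9.97 TPM. In both genes the groups were separate in each lineage, and wild-type Th1 was highest. The interactions were 2.74 ± 0.29 and 2.02 ± 0.32 (limma adjusted p = 0.00108 and 0.0176). They are paralogs, so reads may be shared between them. Ms4a4b kept its call in every fit that left out 1 library and Ms4a4c in 6 of 12. Cd226, an activating receptor of T and natural killer cells, had effects of 0.94 and -1.22, and Tspan6, a tetraspanin, of 0.65 and -1.06. Their interactions of 2.15 ± 0.39 and 1.72 ± 0.27 kept their calls in 2 and 4 of 12 fits that left out 1 library.

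The reverse pattern, a fall in Th17 and a rise in Th1, was shown by Fhl2, Tubb3 and the T cell receptor segment Trav9n-4. Fhl2, a LIM domain cofactor of transcription, fell from 6.86, 8.44 and 6.08 TPM to 2.67, 4 and 2.54 TPM in Th17 and rose from 15.8, 15.3 and 16.7 TPM to 52.9, 48.3 and 51.7 TPM in Th1 cells. Tubb3, a beta tubulin best known from neurons, fell from 1.78, 1.8 and 1.72 TPM to 0.58, 1.09 and 0.182 TPM and rose from 0.658, 0.449 and 0.691 TPM to 7.69, 9.72 and 6.21 TPM. The GLUT3-deficient Th17 values of Tubb3 rest on 13, 13 and 5 reads, and the Th1 rise is the larger part of its interaction. The interactions were -2.62 ± 0.27 for Fhl2 and -3.27 ± 0.33 for Tubb3 (limma adjusted p = 0.00108 and 0.00103). Without GLUT3-deficient Th17 replicate 2 they were -2.78 and -3.47. Trav9n-4, at -1.39, kept its call in 1 of 12 such fits, and V segments share near-identical copies. The 11 genes with opposite called effects held 8 with a called interaction, the last being the small nucleolar RNA Gm23969, which was listed at 0 in 6 libraries and reached at most 7.87 TPM.

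The remaining calls named here belonged to no common group. Tnfsf8, the CD30 ligand, rose in Th17, from 25, 34.2 and 23.7 TPM to 180, 179 and 128 TPM, and stood at 34.4, 32.4 and 35.8 TPM and at 41, 38.2 and 49.9 TPM in Th1. The test was not passed in Th1 although the genotypes did not overlap there, and the interaction was 2.19 ± 0.28 (limma adjusted p = 0.00465). Cd86, a ligand of CD28 and CTLA-4, fell in Th17 from 52.6, 43.1 and 35.6 TPM to 11.8, 13.8 and 9.37 TPM and stood at 3.31 to 5.11 TPM and 5.32 to 10.8 TPM in Th1. Its interaction was -2.63 ± 0.39, and the call was lost without GLUT3-deficient Th1 replicate 1 (-2.51) or 2 (-2.46). Cyp11a1, the enzyme that opens steroid synthesis from cholesterol, rose in Th1 from 6, 5.01 and 6.51 TPM to 31.6, 33 and 29.2 TPM. The Th17 levels were 17.3, 18.8 and 21.2 TPM in wild type, then 15.1, 16.7 and 13.5 TPM without GLUT3, with an effect of -0.32 that did not pass. The interaction of -2.56 ± 0.25 (limma adjusted p = 0.000802) was among the steadiest. Without GLUT3-deficient Th17 replicate 2 these interactions were 2.12 for Tnfsf8, -2.75 for Cd86 and -2.64 for Cyp11a1.

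Bcl2l11, which encodes the pro-apoptotic protein BIM, rose in Th17, from 7.54, 4.95 and 3.52 TPM to 20.3, 27.3 and 18.6 TPM, and stood at 9.1 to 15.1 TPM and 7.99 to 9.83 TPM in Th1. It was the only one of 18 tested BCL2 family genes with a called interaction (2.24 ± 0.38), and kept the call in 4 of 12 fits that left out 1 library. Gap43, a growth-associated protein of neurons, rose in Th17 from 28.7 to 36.6 TPM to 75.7 to 201 TPM, with GLUT3-deficient replicate 2 lowest. Its interaction of 2.40 ± 0.43 became 2.82 without that library, and of the fits that left out 1 library it was called only there. The small GTPase Rac3 rose in Th17 from 1.41 to 2 TPM to 14.5 to 28.6 TPM (interaction 2.37 ± 0.36) and the proteolipid family gene Gpm6b from 1.01 to 2.36 TPM to 25.9 to 29.6 TPM (2.26 ± 0.35), with a smaller rise of Gpm6b in Th1. Their calls held in 8 and 7 of 12 fits. Tmem176a and Tmem176b, overlapping genes on chromosome 6 that encode ion channels of myeloid and Th17 cells, rose in Th1, and their genotypes overlapped in Th17. Tmem176b went from 3.63, 10.1 and 5.15 TPM to 65.6, 74.6 and 59.7 TPM, and stood at 44.8, 107 and 142 TPM and at 138, 124 and 129 TPM in Th17. As they overlap and strand is not marked, they are not independent, and each kept its call (-2.97 ± 0.57 and -2.75 ± 0.55) in 2 of 12 fits. A fall called in Th17 and not in Th1 was also found for Mmp10, a matrix metalloproteinase, and Anxa3, an annexin. Their interactions were -2.35 ± 0.45 and -1.97 ± 0.38. Of the fits that left out 1 library, each was called only without GLUT3-deficient Th17 replicate 2.

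Hao1, an oxidase of hydroxy acids, shows how far a call can depend on the scale. It was listed at 0 in 2 wild-type Th17 libraries and at 0.0881 TPM in the other, and stood at 1.22, 1.72 and 1.28 TPM in GLUT3-deficient Th17, at 1.03, 0.641 and 0.247 TPM in wild-type Th1 and at 24.8, 17.2 and 16.2 TPM in GLUT3-deficient Th1 cells. The groups were separate in both lineages. The interaction was -2.42 ± 0.33 on the log2(TPM + 1) scale, -1.26 with a pseudocount of 0.1 and 0.17 with the voom test on recovered reads. With wild-type Th17 at or near 0, which lineage had the larger relative gain was not settled.

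Genes at 1 TPM or more in only one lineage, that is in at least 3 of its 6 libraries and not in 3 of the other's, are given apart. For them a lineage difference follows in part from the gene being silent in the other lineage. Of 753 such genes in Th17, 24 were called (3.19%), and of 417 in Th1, 18 (4.32%). Some reached 1 TPM only in the GLUT3-deficient group of their lineage, so the split itself depends on the genotype effect and these shares are no comparison with the 51 calls among 13070 genes expressed in both (0.39%). In Th17, Ccl20, which encodes the chemokine that recruits CCR6-bearing cells, rose from 32.2, 36.2 and 53.2 TPM to 423, 366 and 629 TPM and did not exceed 1.37 TPM in Th1 cells. Its interaction was 3.27 ± 0.43 (limma adjusted p = 0.00584). Ccn3, a secreted matricellular protein, rose from 3.22, 3.82 and 3.96 TPM to 95.9, 73.4 and 70.6 TPM, and Gja5, which encodes the gap junction protein connexin 40, from 1.56, 1.99 and 1.95 TPM to 27, 53 and 28.4 TPM. Neither exceeded 0.75 TPM in Th1, and the interactions were 3.50 ± 0.28 and 3.63 ± 0.34. Ccn3 depends on the scale too, at 2.11 with a pseudocount of 0.1. Gdpd2 and Lrrc31 were below 0.5 TPM in wild-type Th17 and reached 5.86 to 11.7 and 3.56 to 5.29 TPM without GLUT3. Ch25h, the cholesterol 25-hydroxylase and itself an interferon-inducible gene, rose from at most 0.753 TPM to 9.76 to 11.5 TPM in Th17.

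Falls among the Th17-only genes were led by Krt83, a hair keratin gene, from 32.3, 18.1 and 15.4 TPM to 1.94, 0.912 and 1.77 TPM (interaction -3.33 ± 0.39, limma adjusted p = 0.00239). Cd5l, which encodes a secreted scavenger receptor protein that in Th17 cells is known to restrain pathogenic function, fell from 4, 7.46 and 10.2 TPM to 0.686, 0.786 and 0.436 TPM, and its neighbour Fcrl1, a gene of B cells, from 4.66, 5.54 and 10.1 TPM to 0.847, 0.844 and 0.606 TPM. Of the 26 tested genes of the Th17 list only Ccl20 and Cd5l were called, in opposite directions. The calls of Ccl20, Ccn3, Gja5, Ch25h and Krt83 held in every fit that left out 1 library, that of Cd5l in 3 of 9 and that of Fcrl1 in 1 of 9. With voom the calls of Ccl20, Ccn3 (0.60), Gja5 and Ch25h were lost, with a pseudocount of 0.1 those of Ccl20, Ccn3 and Ch25h, and with vooma per group that of Ch25h. In Th1, Ccnd1, which encodes cyclin D1, rose from 0.248, 0.0921 and 0.611 TPM to 12.6, 14.9 and 16.6 TPM and did not exceed 0.721 TPM in Th17. Tpm2, a tropomyosin of muscle, rose from 0.149 to 0.233 TPM to 7.11 to 14.8 TPM. The interactions were -3.18 ± 0.28 and -3.00 ± 0.34 (limma adjusted p = 0.000527 and 0.00176). The liver hormone gene Hamp, which encodes hepcidin, the protease-like gene Prss35 and the homeobox gene Irx3 rose in Th1 to 3.43 to 12.9, 3.46 to 4.37 and 3.07 to 5.31 TPM. These genes passed the filter only through GLUT3-deficient Th1 cells, so the 3 fits that left out a library of that group did not test them. In the other 9, Ccnd1, Tpm2 and Prss35 were called in each, Irx3 in 5 and Hamp in 3. With a pseudocount of 0.1 and with voom, the calls of Prss35, Irx3 and Hamp were lost.

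The metabolic gene lists held no called interaction. Enzyme genes on none of these lists, such as Cyp11a1, Hao1 and Ch25h, were called. By limma, none of 24 tested genes of glycolysis and lactate, 37 of the TCA cycle and acetyl-CoA supply, 53 of the respiratory chain and ATP synthase, 33 responsive to HIF-1, 31 of cholesterol and fatty acid synthesis or 9 glucose transporter genes with Txnip passed in either direction. Their median interactions were -0.10, -0.14, -0.07, 0.11, 0.02 and -0.08, and 1, 1, 0, 0, 0 and 0 members had an unadjusted p under 0.05. Over the 23 alternatives, voom on recovered reads included, the highest number called was 1 gene, in the TCA list. Txnip, which encodes a protein that lowers glucose uptake, rose from 28.8, 51.2 and 35.2 TPM to 102, 184 and 82.5 TPM in Th17 and from 19.1, 25.7 and 28.2 TPM to 68.1, 87.5 and 74.6 TPM in Th1, an interaction of -0.02 ± 0.42. Genes of ATF4 and amino acid supply had a median of -0.32, with 19 of 42 falling in Th17 and 10 in Th1, where 9.45% and 8.42% of all tested genes fell. Asns, which encodes asparagine synthetase, fell by 2.00 and by 1.24. Against the same 9.45% and 8.42%, 48 of 78 cytosolic ribosomal protein genes fell in Th17 and 72 in Th1, and 77 interactions were positive with a median of 0.23 and none called. The median was 0.03 to 0.56 over the alternatives, the highest without GLUT3-deficient Th17 replicate 2. The 34 mitosis genes had a median of -0.25 that turned to 0.12 without wild-type Th1 replicate 1. These values do not show equal effects: with a median SE of 0.37, differences below about 1.15 were not called for any gene in this fit.

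**Figure D3:**
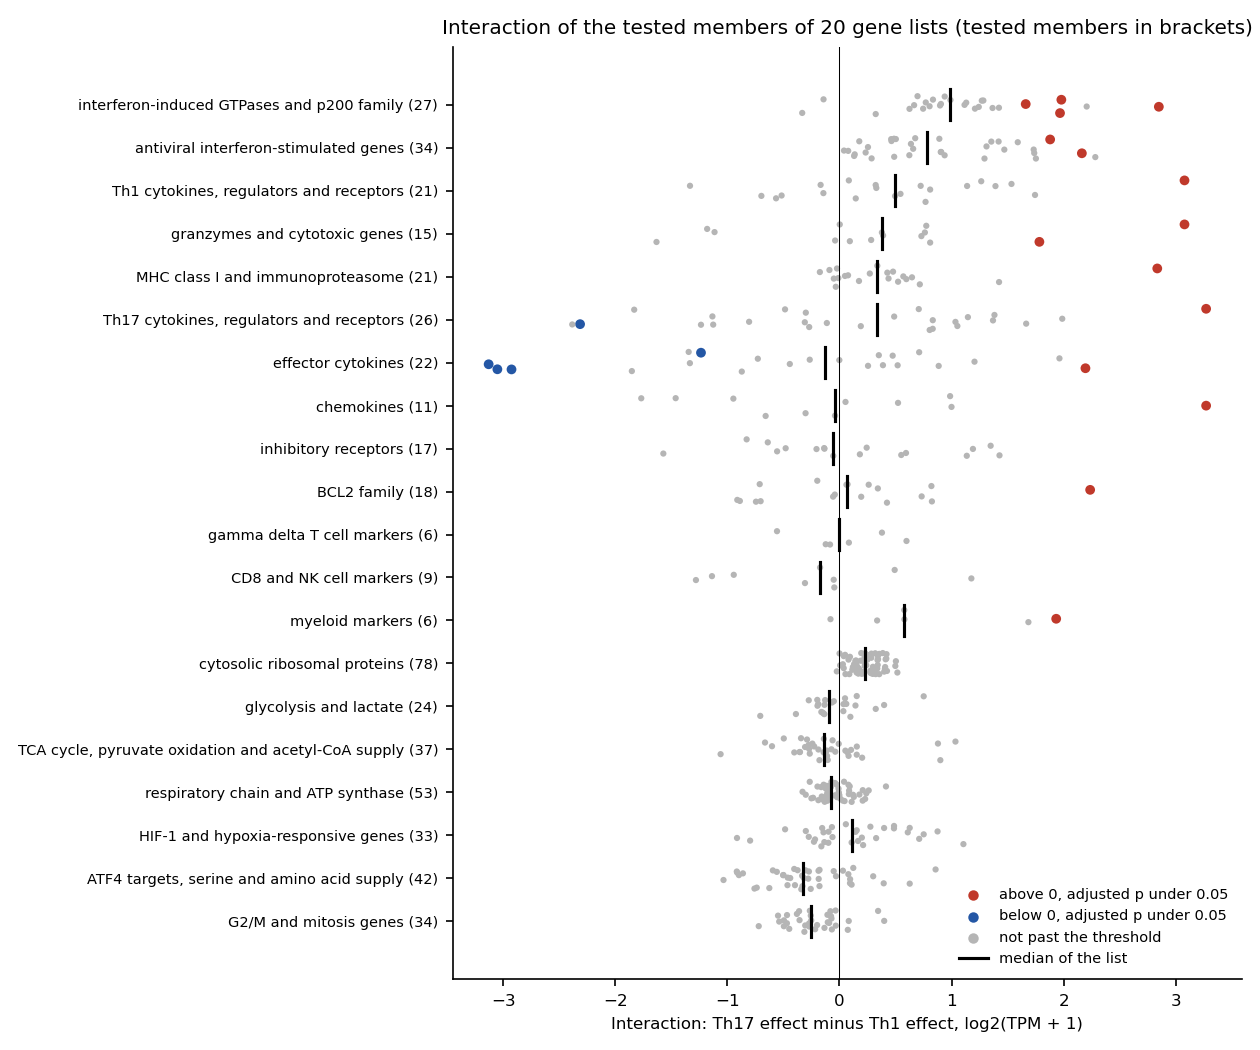
Interaction (x axis, log2 scale) of each tested member of 20 gene lists, with the number of tested members in brackets, the list median as a bar and called genes in colour. The GTPase and p200 list and the antiviral list lie to the right, with medians of 0.99 and 0.78, and the metabolic lists lie near 0.

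Markers of other cell types differed between genotypes in these cultures, and in places between lineages. In bulk RNA fewer cells of a type cannot be told apart from less RNA per cell. The summed level of 8 gamma delta T cell markers was 17.53 to 21.27 TPM in wild-type and 167.47 to 267.37 TPM in GLUT3-deficient Th17 cells, and 15.02 to 33.91 and 175.28 to 279.49 TPM in Th1. The median effects over 6 tested markers were 2.90 in Th17 and 2.83 in Th1, with no called interaction. For 12 myeloid markers the sums were 12.47 to 14.59 and 47.33 to 70.42 TPM in Th17 and 10.88 to 14.05 and 25.22 to 46.21 TPM in Th1. S100a8, a protein of neutrophils, was the only called marker, with an interaction of 1.93 ± 0.31 at 1.62 to 3.37 TPM in GLUT3-deficient Th17 cells, and called in 4 of 9 fits that left out 1 library. It was listed at 0 in wild-type Th17 and GLUT3-deficient Th1 cells. The macrophage marker Adgre1 was listed at 0 in both wild-type groups. Sums of 10 CD8 and natural killer cell markers were 55.99 to 74.42 and 105.62 to 118.55 TPM in Th17 and 69.24 to 90.47 and 216.04 to 325.03 TPM in Th1, and Cd8a, which defines CD8 T cells, fell in Th1, from 2.33 to 2.46 TPM to 0.534 to 1.27 TPM. Sums of 8 B cell markers were 113.72 to 152.84 and 131.65 to 198.44 TPM in Th17 and 88.14 to 112.24 and 68.5 to 475.47 TPM in Th1, with no called interaction. Those of 10 red cell and platelet markers were 9.48 to 18.03 and 46.69 to 125.33 TPM in Th17 and 12.24 to 25.52 and 60.51 to 200.56 TPM in Th1. The part of these cells in the called interactions, such as those of Nkg7, Gzmb, Ly6g, Cd86, Tmem176a, Fcrl1 and Il10, was not tested.

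Some called genes were neighbours. Within 100 kb of each other lay 9 pairs of called genes, and in all 9 both members moved the same way: Il10 and Il19, Tgtp1 and Tgtp2, Phf11a and Phf11b, Ms4a4b and Ms4a4c, Tmem176a and Tmem176b, Cd5l and Fcrl1, Cd86 and Ildr1, Ppp1r14c and Iyd, and Moxd2 and 1810009J06Rik. The Tgtp, Phf11 and Ms4a4 pairs are paralogs whose reads may be shared, and the Tmem176 genes overlap. How often neighbours share a direction over all tested genes was not determined, so the count of pairs is a description only. Since the interaction equals the lineage difference in GLUT3-deficient cells minus that in wild type, a call can mean that the lineages drew together or apart. The lineage difference was smaller in GLUT3-deficient than in wild-type cells for 15 of the 51 genes with a positive interaction and 16 of the 42 with a negative one, and larger for the other 36 and 26. Over all tested genes it was smaller for 6602 and larger for 7977. The called genes were chosen for large interactions, which by arithmetic widen a small wild-type difference. These counts are therefore a description and no test. Nkg7, Ms4a4b and Plac8 were among those that drew together, and Il10, Il23a, Ccl20 and Tnfsf8 among those that drew apart.

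How firmly a call held differed widely among the 93 genes. In all 23 alternative fits 8 genes were called: Il10, Nkg7, Ms4a4b, Plac8, Tnfsf8, Fhl2, Tubb3 and Cyp11a1. With each library left out in turn, 24 of the 93 were called in every fit that still tested them, and 56 in fewer than 6. Of the 24, 16 were tested in all 12 fits, and the other 8 were not tested when a library of the group that carries them was left out. The count of called genes was 21 without GLUT3-deficient Th1 replicate 2 and 171 without GLUT3-deficient Th17 replicate 2, the library that stood apart, of which 81 were among the 93. Of the 93 genes, 92 kept their sign in every fit that tested them, the exception being Hao1. This is no test of the directions. The genes were chosen for large interactions in these libraries, and every fit reuses most of them.

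**Figure D4:**
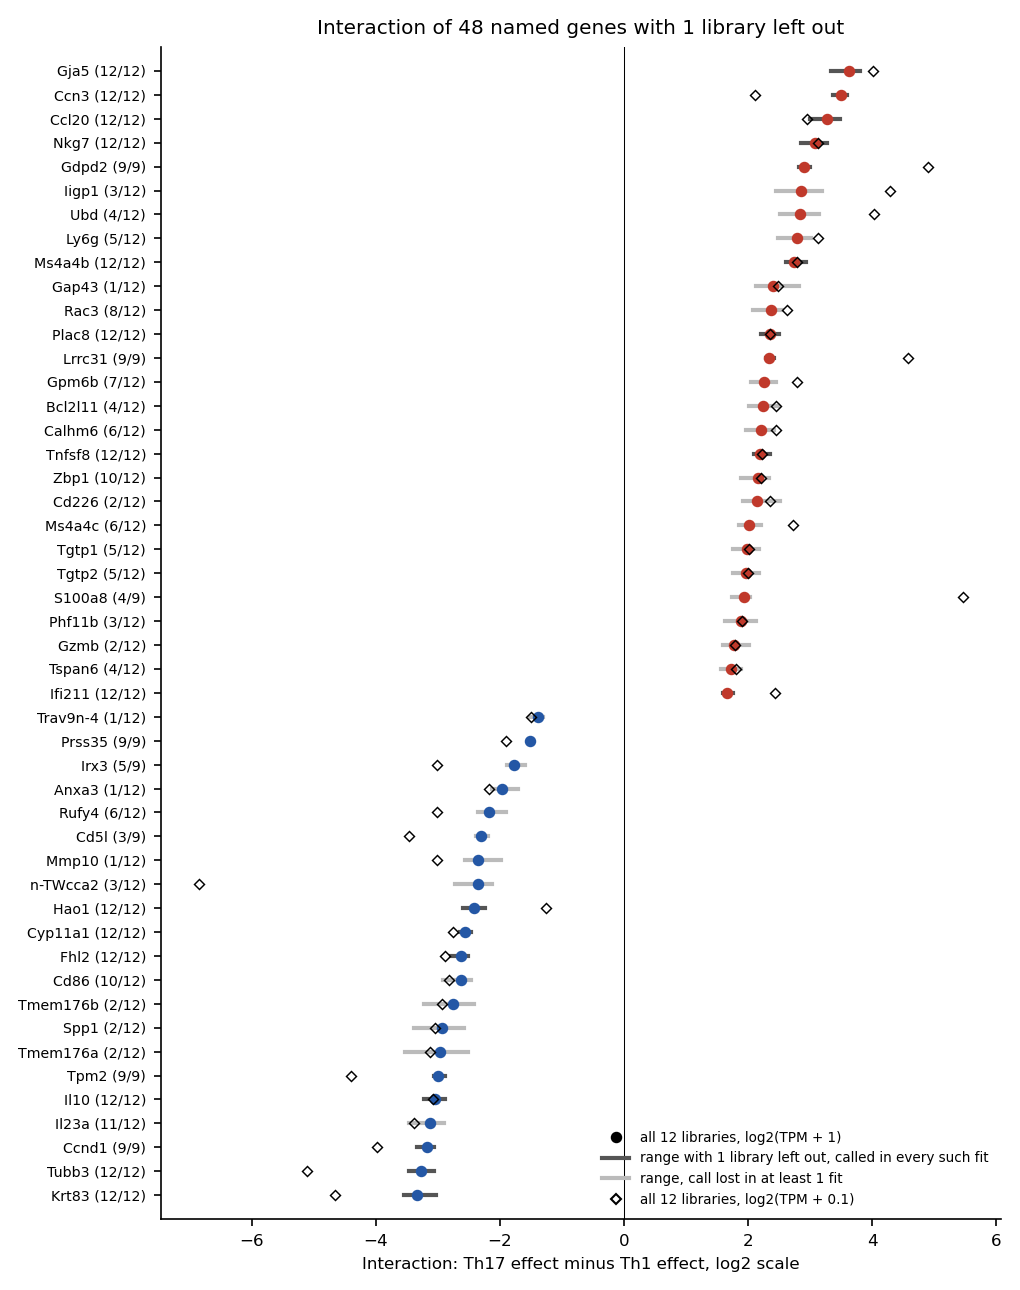
Interaction (x axis, log2 scale) of 48 called genes named by rule, with all 12 libraries (filled points), its range with 1 library left out (bars, dark where the gene was called in every such fit) and its value with a pseudocount of 0.1 (open diamonds); brackets give the fits with a call over the fits that tested the gene. No bar crosses 0, which is no test of direction because the genes were chosen by their interaction in these libraries. Genes at low TPM, such as S100a8, Tubb3 and Ccn3, move far with the pseudocount.

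**Figure D5:**
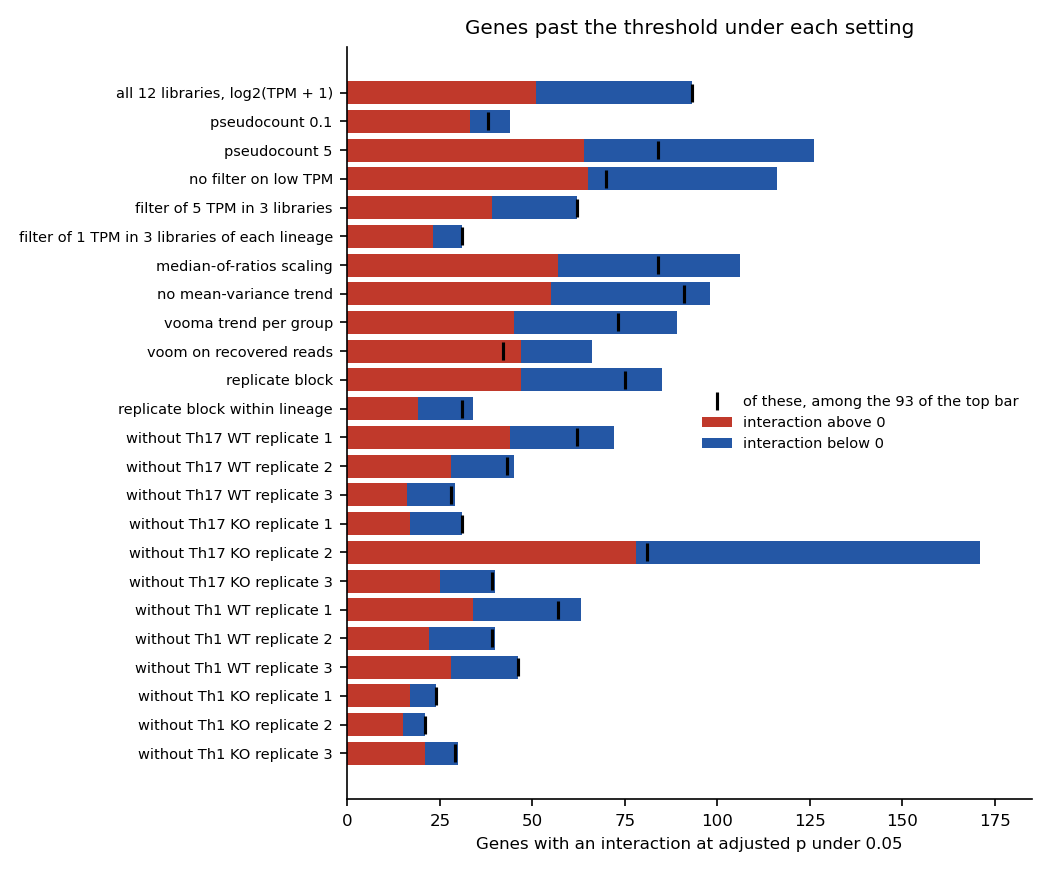
Number of genes with an interaction at adjusted p under 0.05 (x axis) under each setting, split by sign, with the number also among the 93 genes of the top bar as a black mark. The counts run from 21 without GLUT3-deficient (KO) Th1 replicate 2 to 171 without GLUT3-deficient Th17 replicate 2.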

How the data were processed

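RNA was measured in 12 libraries, 1 per sample. Per the labels' protocols, cDNA was made with a SMART-Seq kit, and Nextera XT libraries were read from a single end; this kit does not mark strand. Genome build GRCm38.p6 and the tools STAR 2.7.2b, featureCounts 1.6.4 (Subread), cutadapt, bcl2fastq 2.20.0.422 and DESeq2 1.24.0 are listed, without roles, per the submitters' processing notes. The authors deposited TPM values, 1 table per lineage, each library summing to 1000000, with the replicates kept apart. The tables were joined on gene ID (45703 genes). Reads were recovered as TPM times exon length, whole within 0.02 reads for 100.0% of values.

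Groups came from the sample titles. The fit took genes reaching 1 TPM in at least 3 of the 12 libraries, as log2(TPM + 1), and used limma 3.58.1 under R 4.3.3 (4 group means, moderated with a trend, two-sided, Benjamini-Hochberg over all genes tested). Folds on this scale understate changes of low genes. The count test was not used because the deposited unit is TPM. The steps were tested on simulated data. The contrast, the 36 gene lists (945 entries, 938 matched by symbol and 2 by an older one) and the rules were chosen with earlier results of these data known. Named genes were the key list, the 12 largest called interactions each way at 5 TPM or more, genes with opposite effects, up to 3 per list and, among one-lineage genes, the 6 per lineage with the smallest p; Hbegf, Il19, Ifngas1, Lta, Gm12250, Gm23969, Phf11a, Ch25h, Hamp, Fcrl1 and the further neighbours were chosen after their values were seen. Alternatives changed the pseudocount, filter, scaling, variance model, test, replicate block and libraries.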

Additional observations from a re-analysis of the deposited data

Results flagged for a closer look

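The genotype effect differed between Th17 and Th1 cells by the test of the difference itself (limma, adjusted p under 0.05) for 93 genes, each given here once with its interaction on the log2(TPM + 1) scale, grouped by which of its genotype effects passed the threshold. A rise called in Th17 alone, among genes expressed in both lineages, was found for Nkg7 (3.08), Gap43 (2.40), Rac3 (2.37), Bcl2l11 (2.24), Tnfsf8 (2.19), F2rl1 (2.12), Pls1 (2.08), Phf11a (1.93), Phf11b (1.88), Gm45086 (1.74), Impg2 (1.65), Tmem156 (1.47) and Gm11843 (1.33). A rise called in Th17 alone, among genes at 1 TPM or more in Th17 only, was found for Gja5 (3.63), Ccn3 (3.50), Ccl20 (3.27), Gdpd2 (2.90), Ch25h (2.70), Trpm6 (2.43), Lrrc31 (2.34), Slc1a1 (2.16), Dab2 (2.15), Foxq1 (2.08), S100a8 (1.93), Plk5 (1.80), Nlrp10 (1.29) and Rnf180 (1.27). A rise in both lineages that was larger in Th17, among genes expressed in both lineages, was found for Iigp1 (2.85), Ubd (2.84), Gpm6b (2.26), Calhm6 (2.21), Zbp1 (2.16), Tgtp1 (1.98), Tgtp2 (1.97), Gm12250 (1.94), Mab21l2 (1.93), Gzmb (1.78), Ifi211 (1.66), Gm9282 (1.46) and Dpysl3 (1.15). A rise in both lineages that was larger in Th17, among genes at 1 TPM or more in Th17 only, was found for Cwh43 (2.02) and Gm34401 (1.53). A rise in Th17 with a fall in Th1 was found for Gm23969 (3.32), Ms4a4b (2.74), Cd226 (2.15), Ms4a4c (2.02) and Tspan6 (1.72). Of these, Gm23969 was at 1 TPM or more in Th1 only. A fall called in Th1 alone was found for Ly6g (2.78) and Plac8 (2.35), expressed in both lineages. It was also found for Ifngas1 (2.38) and Gng11 (2.02), at 1 TPM or more in Th1 only. A rise called in Th1 alone, among genes expressed in both lineages, was found for Il10 (-3.05), Tmem176a (-2.97), Tmem176b (-2.75), Cyp11a1 (-2.56), Selenom (-1.91) and Armc7 (-1.37). A rise called in Th1 alone, among genes at 1 TPM or more in Th1 only, was found for 1700012B09Rik (-3.18), Ccnd1 (-3.18), Tpm2 (-3.00), Hamp (-2.77), Il19 (-2.70), n-TWcca2 (-2.35), Gm40032 (-2.18), Rufy4 (-2.18), Ocstamp (-2.07), Irx3 (-1.77), Moxd2 (-1.67), Gm38800 (-1.62), 1810009J06Rik (-1.61), Lbhd2 (-1.61) and Prss35 (-1.52). A fall called in Th17 alone, among genes expressed in both lineages, was found for Cd86 (-2.63), Mmp10 (-2.35), Anxa3 (-1.97) and Ildr1 (-1.48). A fall called in Th17 alone, among genes at 1 TPM or more in Th17 only, was found for Krt83 (-3.33), Cd5l (-2.31), Fcrl1 (-2.09), Ppp1r14c (-2.05), Snora30 (-1.63), Gm39211 (-1.42), Iyd (-1.29) and n-TGccc4 (-1.15). A rise in both lineages that was larger in Th1 was found for Il23a (-3.13), Spp1 (-2.93), Hao1 (-2.42), Hbegf (-1.71), Slamf8 (-1.54) and Lta (-1.24). A fall in Th17 with a rise in Th1 was found for Tubb3 (-3.27), Fhl2 (-2.62) and Trav9n-4 (-1.39). The groups of 3 libraries are too small for a test of single outlying libraries.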

How the results depend on the processing

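The 93 genes called for the interaction (51 higher and 42 lower in Th17) became 44 (33 and 11) with a pseudocount of 0.1, 31 (23 and 8) with a filter of 1 TPM in 3 libraries of each lineage and 34 (19 and 15) with a replicate block within lineage. Those lower in Th17 were 23 with a filter of 5 TPM and 19 with voom on recovered reads. Median-of-ratios scaling gave 106, vooma with a trend per group 89 and a pseudocount of 5 gave 126. With 1 library left out, the interaction was called for 21 to 171 genes, 15 to 78 of them higher and 6 to 93 lower in Th17, and the genotype effect for 1735 to 3475 genes in Th17 and 1472 to 4397 in Th1. That effect was called for 1009 and 4220 genes with only the 6 libraries of the lineage, and for 1449 and 4526 with vooma, each group then having its own spread. The pooled spread of the main fit is larger than that of Th1 and smaller than that of Th17, so the counts per lineage are not comparable in size.

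The replicate block with 1 set of numbers gave 85 genes (47 and 38), 75 of them among the 93. The numbers were not taken to pair libraries: same-numbered libraries correlated in their deviations from the group means at 0.26 to 0.72 between wild-type Th17 and Th1 and at 0.14 to 0.41 between the Th17 genotypes, but at -0.07 to 0.21 between the Th1 genotypes and at -0.19 to 0.22 between GLUT3-deficient Th17 and Th1. Between wild-type Th17 and Th1, differently numbered libraries correlated at -0.61 to 0.28. The numbers may therefore pair the wild-type libraries across lineages. A block of numbers within genotype, across lineages, was not fitted. How such a pairing would change the SEs and calls of the interaction was not tested. The replicate block within lineage kept 31 of the 93 calls. Among the genes named in the report it ended those of Gzmb, Iigp1, Ubd, Phf11a, Phf11b, Lta, Il19, Hbegf, Ly6g, Ifngas1, Ms4a4c, Cd226, Tspan6, Trav9n-4, Gm23969, Rac3, Gpm6b, Bcl2l11, Tmem176a, Tmem176b, Mmp10, Anxa3, Cd5l, Fcrl1, S100a8, Prss35, Irx3, Ildr1, Iyd, Ppp1r14c, Moxd2 and 1810009J06Rik, and it called Il17f.

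Directions were compared for genes called in either fit and for list medians of at least 0.2. Hao1 turned to 0.17 with voom. With 1 library left out, 6 list medians changed sign: the Th17 list (-0.14 without GLUT3-deficient Th17 replicate 2, up to 0.71), chemokine and homing receptors (-0.06 to 0.39, below 0 without GLUT3-deficient Th17 replicate 2, wild-type Th17 replicate 3 or wild-type Th1 replicate 1), TGF-beta signalling (-0.06 to 0.69, below 0 without GLUT3-deficient Th17 replicate 2), immediate early genes (-0.35 to 0.07, above 0 without wild-type Th17 replicate 1, GLUT3-deficient Th17 replicate 1 or 3, or wild-type Th1 replicate 3), mitosis genes (-0.58 to 0.12, above 0 without wild-type Th1 replicate 1) and red cell and platelet markers (-0.09 to 1.13, below 0 without GLUT3-deficient Th1 replicate 3). Where no reason is given, the cause was not tested. With all libraries and the main settings, no interaction under 1.15 was called.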

Other observations

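Among the called genes on none of the lists, F2rl1, Cwh43 and Dab2 rose in Th17 cells from low levels. F2rl1, which encodes the protease-activated receptor PAR2, stood at 1.65 to 2.1 TPM in wild-type Th17 and at 6.22 to 7.47 TPM without GLUT3, and at 1.01 to 2.37 TPM and 0.359 to 1.05 TPM in Th1, where the effect did not pass. Cwh43, a gene of lipid anchor remodelling, rose in Th17 from at most 0.103 TPM to 6.95 to 9.29 TPM and in Th1 from at most 0.371 TPM to 0.948 to 1.99 TPM. Dab2, an adaptor of endocytosis, rose in Th17 from 0.521 to 0.922 TPM to 5.64 to 9.74 TPM and did not exceed 0.143 TPM in Th1. The interactions were 2.12 ± 0.34 for F2rl1, 2.02 ± 0.28 for Cwh43 and 2.15 ± 0.29 for Dab2. With 1 library left out the call of Cwh43 held in 12 of 12 fits and that of F2rl1 in 6 of 12. Dab2 passed the filter only through GLUT3-deficient Th17 cells, was not tested without a library of that group, was called in the other 9 fits, and lost its call with a pseudocount of 0.1 and with voom.

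Slamf8, Ocstamp and Rufy4 rose in Th1 cells from low levels. Slamf8, a receptor of the SLAM family, rose to 6.7 to 10.1 TPM in Th1 and to 1.5 to 2.46 TPM in Th17, and was listed at 0 in 5 of the 6 wild-type libraries. Ocstamp, a membrane protein of osteoclast fusion, rose in Th1 from 1.24 to 3.35 TPM to 10.3 to 16.2 TPM, and Rufy4, an autophagy-linked gene, from 1.98 to 4.53 TPM to 15.2 to 16.2 TPM. Both stayed below 1 TPM in Th17. The interactions were -1.54 ± 0.28, -2.07 ± 0.39 and -2.18 ± 0.36, and the calls were kept in 1, 2 and 6 of 12 fits that left out 1 library. The genes in both paragraphs were chosen after their values were seen, except Rufy4, and the part of other cell types was not tested.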
